A study of Mus musculus with 18 samples.

Results

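Dppa2, Dppa3, Dppa4 and Dppa5a are mouse developmental pluripotency associated genes. They were chosen by symbol, as 4 of the 24116 genes in the deposited count table, and all 4 passed the filter on low counts. Their messenger RNA was followed in 18 libraries of polyadenylated RNA from mouse embryonic stem (ES) cells of the 129S6/SvEvTac strain, cultured in serum with leukaemia inhibitory factor (LIF). The wild-type add-back (n = 3) and the mutant add-back (n = 2, replicates 1 and 3) are Snf2h ko cells that re-express Snf2h, either as the wild-type protein or as an ATPase mutant. The Snf2h ko (n = 5) carries no added Snf2h, and the wild-type cells (n = 8) have the unaltered gene. Both add-backs therefore share the ko background. Smarca5 is the gene for Snf2h, the motor subunit of the ISWI remodellers that move nucleosomes along DNA. Per the labels, plates were coated with gelatin, except that ko cells and cells with the mutant grew on fibroblast feeders from mouse embryos during their first passages, or longer, once thawed. Whether a line is 1 clone, what drives the added Snf2h, and which replicates, called biological in the labels, are separate cultures is not stated there, so p-values measure the spread between these libraries, part of which may be technical. The series' design text gives at most 5 RNA replicates per condition, whereas wild type has 8 libraries, and whether some of these are repeats of 1 culture is not stated.

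The Dppa name groups genes by where they are expressed, not by common descent. Dppa2 and Dppa4 are paired nuclear proteins with a DNA-binding SAP domain. They bind chromatin together, keep a set of developmental promoters free of DNA methylation, and act upstream of Dux and the Zscan4 genes of the 2-cell-like state, which a few cells of an ES culture enter and in which they resemble the early embryo. Dppa3, also called Stella or PGC7, is a maternal and germ cell protein that keeps UHRF1, and with it maintenance DNA methylation, off chromatin. Dppa5a, also called Esg1, is an RNA-binding protein with a KH domain that is abundant in ES cells and in germ cells.

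Dppa4 and Dppa2 lie side by side on the plus strand of chromosome 16 (GRCm38.p6, RefSeq), at positions 48283735 to 48294292 and 48310274 to 48319513, with 15981 bases between them. Dppa3 is on the plus strand of chromosome 6, from 122626424 to 122630271, and Dppa5a on the minus strand of chromosome 9, from 78367052 to 78368199. Dppa2 has 7 exons in its RefSeq-matched transcript, Dppa3 has 4 and Dppa5a has 3, while Dppa4 has transcripts of 6 and of 7 exons. Values below sum the exons of a whole gene. Each gene has near-identical copies elsewhere, and how the authors counted reads that fit several places is not given in the sources used here. Of all 50-base stretches of the annotated transcripts, 38.6% in Dppa5a, 31.3% in Dppa4, 29.1% in Dppa2 and 16.5% in Dppa3 also occur in transcripts of another gene. For Dppa5a these include Dppa5b, Dppa5c, several pseudogenes and Pigp, and for Dppa3 mostly Dppa3-ps. Levels could thus hold some reads of the copies or lack some of their own. Dppa1 had a single read over all 18 libraries and was not tested.

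Library totals were 15.3 to 17.4 M counts in the add-backs, 16.9 to 24.9 M in ko and 16.8 to 36.98 M in wild type. By total the libraries fell into a low set of 11 (15.3 to 18.99 M), a middle set of 4 (22.9 to 25.3 M, replicates 1 and 2 of ko and of wild type) and a high set of 3 wild-type libraries. The labels do not name the sets, and total counts alone define them. Replicates from different sets differed more than most replicates within a set (29.4 to 65.3 across sets and 1.45 to 38.6 within a set, as chi-square divided by the number of genes). All add-backs are in the low set, so for the Dppa genes ko effects are also given within the low and the middle set, and add-back effects within the low set. Smarca5 was 19.8-fold lower in ko than in wild type (log2 fold change −4.30 ± 0.13 (SE), adjusted p = 3.04e-14), and no ko library exceeded 10.1 CPM (counts per 1 M, with library totals scaled by the TMM method). All 7 ES cell markers (Pou5f1, Sox2, Nanog, Zfp42, Esrrb, Tdgf1 and Utf1) were detected in every library. Their summed level was 4748 to 5452 CPM in the add-backs, 5106 to 5244 CPM in the low and 3654 to 3679 CPM in the middle ko libraries, and 4712 to 4851 CPM in wild type. In these bulk samples, fewer cells that express a gene and less RNA per cell cannot be told apart.

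Per length, the 4 genes span a wide range of levels. In FPKM, which divides CPM by the gene's exonic length in kilobases, Dppa5a averaged 1191 ± 103 in the wild-type add-back (SD, n = 3), 1709 ± 310 in the mutant add-back (n = 2), 1463 ± 86.2 in ko (n = 5) and 1089 ± 128 in wild type (n = 8). It stood at the 99.9th percentile of the tested genes in wild type and higher still in ko. Dppa4 followed with 66.2 ± 1.41, 62.9 ± 3.24, 52.4 ± 7.96 and 58.8 ± 9.93 FPKM in the same order of groups. Dppa2 averaged 29.4 ± 0.14, 23.8 ± 0.03, 15.7 ± 5.19 and 39.8 ± 11.5 FPKM. Dppa3 was the lowest of the 4 in every group, at 6.80 ± 0.96, 2.76 ± 0.96, 2.73 ± 0.36 and 5.73 ± 1.29 FPKM. The order Dppa5a, Dppa4, Dppa2, Dppa3 held in each of the 18 libraries. Between groups, Dppa2 was highest in wild type, then the wild-type add-back, the mutant add-back and ko, and no neighbouring pair in that order passed the test over all libraries described below. Dppa3 was highest in the wild-type add-back, then wild type, the mutant add-back and ko, where only wild type and the mutant add-back passed as neighbours. Dppa4 ran from the wild-type add-back over the mutant add-back and wild type to ko, with no neighbouring pair past the test. Dppa5a was highest in the mutant add-back, then ko, the wild-type add-back and wild type, where only ko and the wild-type add-back passed as neighbours. Dppa3 rests on 30 to 196 reads per library, so its values carry the largest counting error, while Dppa5a rests on 10369 to 26099 reads.

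**Figure D1:**
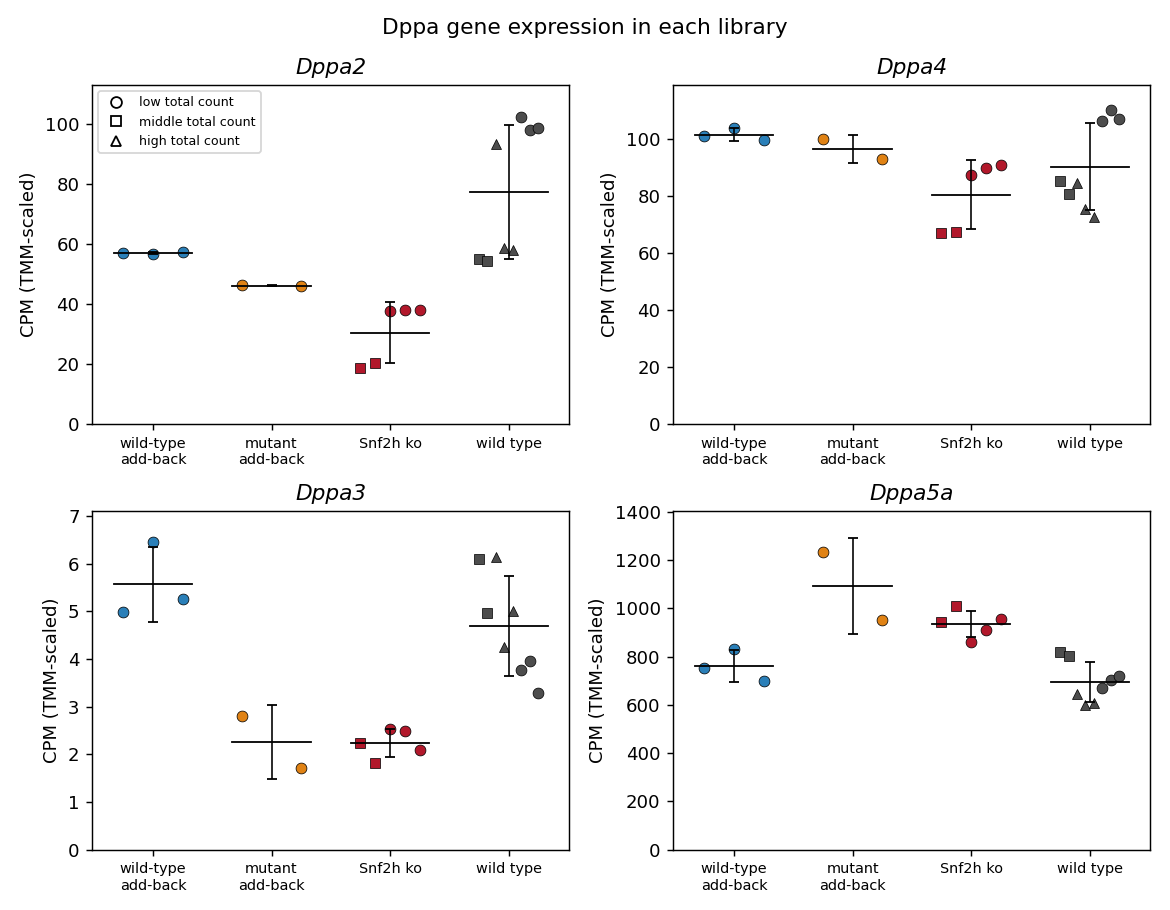
Level of each Dppa gene in each library, in CPM (vertical axis, starting at 0), for the wild-type add-back, the mutant add-back, Snf2h ko and wild type. Each point is 1 library, its symbol gives the set by total count, the horizontal line is the group mean and the bar its SD. For Dppa2 and Dppa3 all 5 ko libraries lie below all 8 wild-type libraries, for Dppa5a all lie above, and for Dppa4 the groups overlap. These groups did not overlap for 29.5% of all tested genes.

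Ko against wild type compares cells without and with Snf2h, and the 4 genes did not move as a group. By the labels ko cells, unlike wild-type cells, had been on feeders, so feeder exposure and loss of Snf2h cannot be told apart. Dppa2 and Dppa3 fell, Dppa5a rose, and Dppa4 did not pass the test. Thus 3 of the 4 were called at an adjusted p under 0.05 (edgeR's quasi-likelihood test with Benjamini-Hochberg adjustment over 14901 tested genes), where 55% of all tested genes were called, 26.8% higher and 28.2% lower. With so large a background the share of called members says little, and the results lie in the sizes and directions of the single genes.

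Dppa2, the partner of Dppa4 at developmental promoters, was 2.54-fold lower in ko. Its ko libraries 1 to 5 had 18.7, 20.3, 37.5, 37.9 and 38.2 CPM, against 54.2 CPM in the lowest, 76.1 CPM in the median and 102.5 CPM in the highest wild-type library. The groups did not overlap, as was the case for 29.5% of all tested genes in one direction or the other. The log2 fold change was −1.35 ± 0.22 (SE, adjusted p = 4e-05).

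Dppa2 also differed between sets of libraries of 1 genotype. The 3 low-set wild-type libraries averaged 99.7 ± 2.42 CPM and the 2 middle-set ones 54.7 ± 0.68 CPM, a log2 difference of 0.87 ± 0.14 (low over middle, adjusted p = 7.22e-05, where 43.5% of all genes were called). In ko the low-set libraries likewise exceeded the middle-set ones, at 37.9 ± 0.31 CPM against 19.5 ± 1.13 CPM (0.96 ± 0.15, adjusted p = 5.68e-05, with 43.8% called). In the high set wild-type replicate 3 stood apart with 93.3 CPM, against 58.9 and 57.9 CPM in replicates 4 and 5. The ko effect was of nearly one size within the sets, at −1.40 ± 0.13 in the low (adjusted p = 2.32e-08) and −1.49 ± 0.16 in the middle set (adjusted p = 1.89e-07), and the difference between the sets was 0.09 ± 0.20 (adjusted p = 0.781).

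Dppa4, which lies upstream of Dppa2 in the same orientation, moved far less. Ko libraries 1 to 5 had 66.9, 67.3, 87.3, 89.8 and 90.8 CPM, and the wild-type libraries had 72.4 CPM at the lowest, 84.8 CPM at the median and 110 CPM at the highest. The groups overlapped, and the log2 fold change of −0.16 ± 0.11 did not pass the test (adjusted p = 0.223). The same split by total count appeared as for Dppa2, with wild type at 107.8 ± 1.97 CPM in the low and 82.9 ± 3.15 CPM in the middle set. Within the sets Dppa4 fell in ko by a small amount, −0.27 ± 0.06 in the low (adjusted p = 0.000497) and −0.30 ± 0.07 in the middle set (adjusted p = 0.00102), where 60.1% and 61.8% of all genes were called.

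Because both genes are read in one library, their ratio sets them against each other without scaling between libraries. Dppa2 over Dppa4 (FPKM over FPKM) was 0.433 to 0.455 in the wild-type add-back, 0.365 and 0.392 in the mutant add-back, 0.221 to 0.340 in ko and 0.512 to 0.873 in wild type. Every ko library thus lay below every library of the other groups, and every add-back library lay between ko and wild type. The mean ratio was 0.445 ± 0.011 (SD, n = 3) in the wild-type add-back, 0.379 ± 0.019 (n = 2) in the mutant add-back, 0.293 ± 0.058 (n = 5) in ko and 0.670 ± 0.121 (n = 8) in wild type. Dppa5a over Dppa4 stood at 24.6 and 29.6 in the mutant add-back and 23.6 to 36.0 in ko, above 16.9 to 19.2 in the wild-type add-back. Wild type, at 15.1 to 23.9 over all sets, reached the lower end of ko and enclosed the wild-type add-back. Within a set wild type lay below ko, at 15.1 to 16.1 against 23.65 to 25.25 in the low set. In the middle set it had 23.1 and 23.9, against 33.8 and 36.0 in ko. The wild-type add-back lay above all low-set wild-type libraries.

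**Figure D2:**
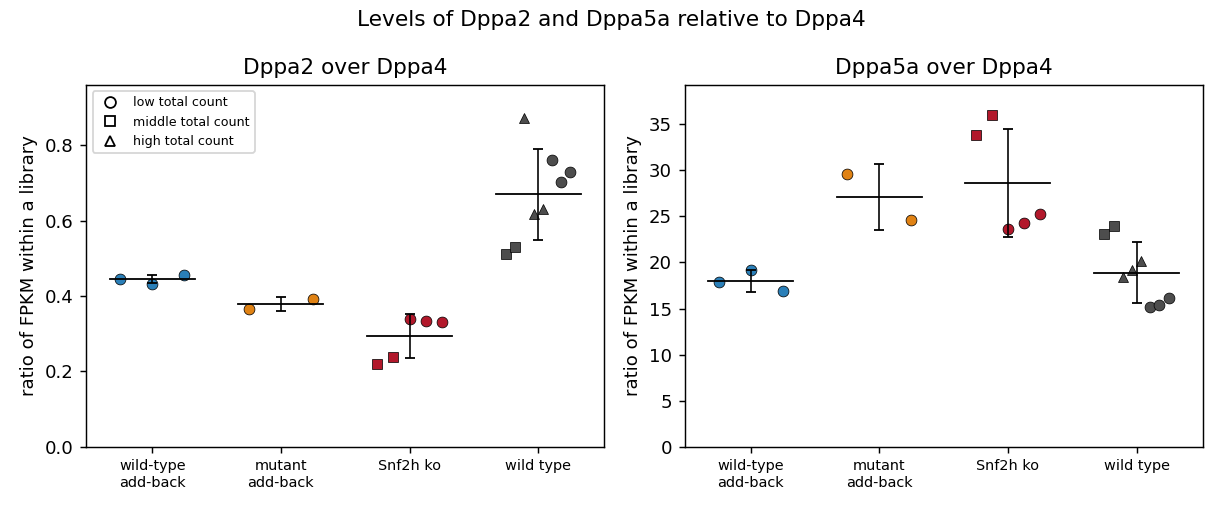
Ratio of Dppa2 to Dppa4 (left) and of Dppa5a to Dppa4 (right) within each library, both in FPKM, by group. Each point is 1 library, its symbol gives the set by total count, lines are group means and bars the SD. The ko libraries hold the lowest Dppa2 ratios (0.221 to 0.340) and wild type the highest (0.512 to 0.873).

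Dppa3, the germ cell factor that acts on UHRF1, was 2.11-fold lower in ko. Ko libraries 1 to 5 had 2.24, 1.82, 2.54, 2.49 and 2.09 CPM, against 3.30 CPM in the lowest, 4.61 CPM in the median and 6.13 CPM in the highest wild-type library. No ko library reached the wild-type range, and the groups likewise did not overlap for 29.5% of all tested genes. The log2 fold change was −1.08 ± 0.18 (adjusted p = 5.44e-05). It was −0.63 ± 0.20 in the low (adjusted p = 0.0119) and −1.44 ± 0.22 in the middle set (adjusted p = 1.16e-05). The difference of 0.81 ± 0.31 between these effects did not pass the test (adjusted p = 0.0533), where 26.7% of all genes did. Wild type averaged 3.68 ± 0.34 CPM in the low and 5.53 ± 0.81 CPM in the middle set. This log2 difference was −0.59 ± 0.20 (low over middle, adjusted p = 0.0196, with 43.5% of all genes called). In ko the sets did not pass (0.23 ± 0.23, adjusted p = 0.454, with 43.8% called).

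Dppa5a, the KH protein, went the other way. Ko libraries 1 to 5 had 942, 1009, 860, 909 and 955 CPM, against 601 CPM in the lowest, 686 CPM in the median and 818 CPM in the highest wild-type library. All ko libraries lay above all wild-type libraries, with the nearest values coming from different sets. The groups likewise did not overlap for 29.5% of all tested genes. The gene was 1.34-fold higher in ko, a log2 fold change of 0.43 ± 0.08 (adjusted p = 0.000347), with 0.38 ± 0.08 in the low (adjusted p = 0.000295) and 0.27 ± 0.10 in the middle set (adjusted p = 0.0204). When the libraries of a group and set were summed, so that each set counted once, Dppa2 still passed (−1.35, adjusted p = 0.0344), whereas Dppa3 (−1.08, adjusted p = 0.0523) and Dppa5a (0.44, adjusted p = 0.106) did not.

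Markers of other cells differed between the same libraries. The summed level of 20 embryonic fibroblast markers was 187.5 to 208.4 CPM in ko against 73.0 to 117.3 CPM in wild type. In ko 13 of 17 tested markers were higher and 3 lower, beside 26.8% and 28.2% of all tested genes. Of these markers only Lum had no read in ko, and Lum and Twist2 had none in the wild-type libraries of some sets. The summed level of 10 primitive endoderm markers was 6748 to 7259 CPM in the middle-set and 1786 to 1880 CPM in the low-set ko libraries. In wild type it was 1268 to 1336 CPM in the middle, 2984 to 3018 CPM in the low and 1074 to 1722 CPM in the high set. In ko it was thus above wild type in the middle set and below it in the low set. Trophectoderm marker sums were 141.8 to 147.6 CPM in the low-set and 368.8 to 396.3 CPM in the middle-set ko libraries, and 87.4 to 131.6 CPM in wild type. Neural ones in the low set were 131 to 136.8 CPM in ko and 68.6 to 70.3 CPM in wild type. In the middle set they were 67.6 to 70.9 CPM in ko and 75.8 to 76.8 CPM in wild type. High-set wild-type libraries had 65.7 to 105.6 CPM. The part of these markers in these results was not tested.

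With wild-type Snf2h returned, 3 of the 4 genes differed from ko, each in the direction opposite to its ko effect. Both comparisons use the same ko libraries, and 45% of all tested genes differed between the wild-type add-back and ko, 22.5% higher and 22.4% lower. The wild-type add-back, unlike ko, was not on feeders by the labels, so feeder exposure and the return of Snf2h cannot be told apart. Dppa3 had the largest change. It had 4.98, 6.46 and 5.26 CPM in the wild-type add-back, above every ko library (1.82 to 2.54 CPM). These groups did not overlap for 55.3% of all tested genes, in one direction or the other. Dppa3 was 2.49-fold higher than in ko, with a log2 fold change of 1.32 ± 0.22 (adjusted p = 8.83e-05). In the low set alone it was 1.23 ± 0.20 (adjusted p = 1.95e-05).

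Dppa2 was nearly equal in the 3 wild-type add-back libraries, at 57.1, 56.8 and 57.4 CPM, against at most 38.2 CPM in ko. It was 1.88-fold higher than ko (0.91 ± 0.26, adjusted p = 0.00841), and 0.59 ± 0.13 in the low set (adjusted p = 0.000602). The low-set value is smaller because it leaves out the middle-set ko libraries, which held the lowest Dppa2 levels. Dppa4 had 101.1, 103.8 and 99.5 CPM in the wild-type add-back, all above the ko range of 66.9 to 90.8 CPM, as for 55.3% of all tested genes in one direction or the other. Its log2 fold change of 0.34 ± 0.14 did not pass the test over all libraries (adjusted p = 0.0607). It passed in the low set (0.18 ± 0.06, adjusted p = 0.011, where 58.6% of genes were called), and over all libraries without ko replicate 4 (0.38) or 5 (0.39).

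Dppa5a fell in the wild-type add-back, at 754, 830 and 699 CPM, below the ko range of 860 to 1009 CPM. The groups likewise did not overlap for 55.3% of all tested genes, in one direction or the other. The log2 fold change was −0.30 ± 0.11 (adjusted p = 0.036), and −0.25 ± 0.08 in the low set (adjusted p = 0.00847). This call was the least stable of the 4. It was lost without ko replicate 1 (−0.30), 2 (−0.27), 4 (−0.31) or 5 (−0.29), and without wild-type add-back replicate 1 (−0.29) or 3 (−0.24). The fibroblast marker sum was 59.6 to 61.7 CPM in the wild-type add-back, against 187.5 to 208.4 CPM in ko, and its part in these changes was not tested. Of the fibroblast markers Postn had no read in the wild-type add-back, and Lum none in the mutant add-back.

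The ATPase mutant add-back has only 2 libraries, so a missed threshold against ko does not show that it differs from the wild-type add-back. The 2 differed by 13.2, as chi-square divided by the number of genes, against at most 6.35 for other replicate pairs of the low set. Their Smarca5 levels were 48.4 and 68.6 CPM. Over ko, Dppa2 and Dppa4 went the same way in both add-backs, by 0.60 and 0.26 with the mutant and by 0.91 and 0.34 with the wild-type protein. Against ko none of the 4 genes passed edgeR's test, 0 had an unadjusted p under 0.05 and 0 passed DESeq2's. Of all tested genes 0.322% (48) passed edgeR's and 332 passed DESeq2's. Among all genes there were 25 calls without ko replicate 1, 4 without replicate 1 of the mutant add-back and 143 without its replicate 3. Dppa3 had 2.81 and 1.71 CPM in the mutant add-back, one above and one below the ko range of 1.82 to 2.54 CPM (0.02 ± 0.27, adjusted p = 0.979). Dppa2 had 46.2 and 46.1 CPM, above every ko library, as in one direction or the other for 27.9% of all genes, but the log2 fold change of 0.60 ± 0.30 did not pass (adjusted p = 0.341), nor did the 0.29 ± 0.14 of the low set (adjusted p = 0.183). Dppa4 had 99.99 and 92.97 CPM (0.26 ± 0.16, adjusted p = 0.436, and 0.11 ± 0.07 in the low set, adjusted p = 0.264). Dppa5a had 1232 and 952 CPM, of which the first lies above every ko library, with 0.22 ± 0.12 over all libraries (adjusted p = 0.395) and 0.27 ± 0.09 in the low set, where it passed (adjusted p = 0.0444) as did 14.6% of all genes.

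Setting the add-backs against each other compares the 2 forms of Snf2h directly, both in the low set. Dppa3 was 2.46-fold higher with the wild-type than with the mutant protein (log2 fold change 1.30 ± 0.29, adjusted p = 0.00192), and Dppa5a was 1.43-fold lower (−0.52 ± 0.14, adjusted p = 0.00583), where 37% of all tested genes were called and 60.6% in the low-set fit. Without mutant add-back replicate 1, which had the highest Dppa5a of all libraries, the Dppa5a difference was −0.31 (adjusted p = 0.213). Where 1 mutant library is left out, the other is alone and is assumed to vary like the libraries of the other groups. In the low set the differences were 1.30 ± 0.23 for Dppa3 (adjusted p = 4.96e-05) and −0.52 ± 0.09 for Dppa5a (adjusted p = 3.09e-05). Dppa2 was higher in all 3 libraries with the wild-type protein (the groups did not overlap for 72.5% of genes), by 0.31 ± 0.33 (adjusted p = 0.496). The low-set fit gave 0.31 ± 0.14 (adjusted p = 0.0701), and a fit of only these groups 0.30 (adjusted p = 0.0051). The Dppa2 difference therefore depends on how the spread between libraries is estimated. Dppa4 differed by 0.07 ± 0.18 (adjusted p = 0.781). Smarca5 mRNA was also unequal, higher by 0.56 ± 0.17 in the wild-type add-back (adjusted p = 0.0178), and dose and ATPase activity cannot be told apart here. By the labels the mutant add-back line was on feeders and the wild-type one was not, and the fibroblast marker sum was 184.6 to 220.3 CPM in the mutant against 59.6 to 61.7 CPM in the wild-type add-back, so feeder exposure and the form of Snf2h cannot be told apart either. Other marker sums differed too, at 1938 to 2211 CPM in the wild-type and 2941 to 3204 CPM in the mutant add-back for primitive endoderm, 124.9 to 134.5 and 296.1 to 361.9 CPM for trophectoderm, and 71.3 to 77.3 and 103 to 109.6 CPM for neural markers in the same order, against the wild-type cells' sums given above. Their part in these differences was not tested.

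**Figure D3:**
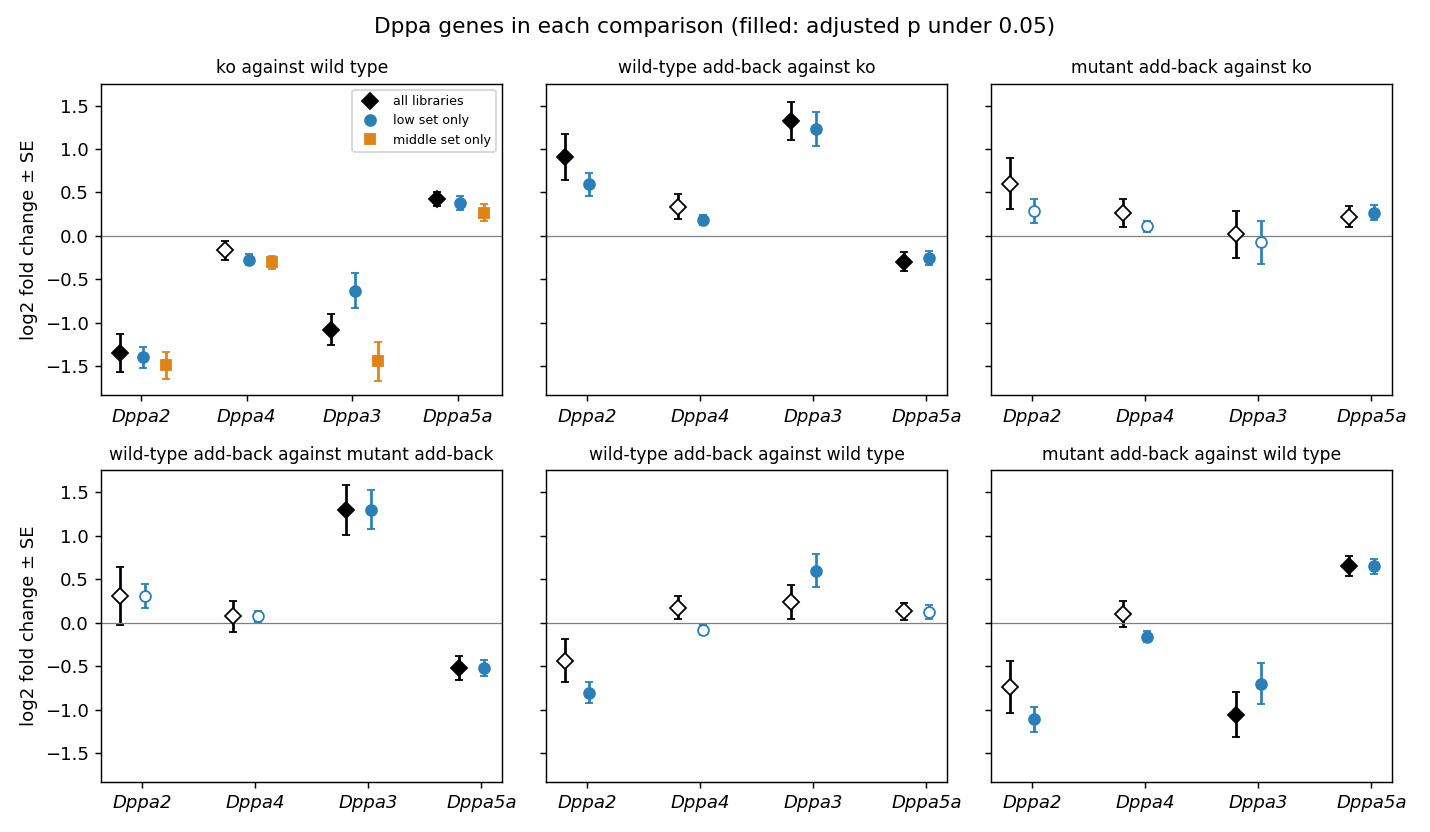
Log2 fold changes (vertical axis) with their SE for the 4 Dppa genes in the 6 comparisons, over all libraries (black) and within the low (blue) or middle (orange) set by total count. Filled symbols passed an adjusted p under 0.05. The ko effects on Dppa2 are alike in both sets (−1.40 and −1.49), while those on Dppa3 are −0.63 and −1.44.

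Set against wild type, none of the 4 was called in the wild-type add-back by edgeR or by DESeq2, and 0 had an unadjusted p under 0.05, where edgeR called 1.6% of all tested genes (238). Leaving out 1 wild-type add-back library in turn left 44 to 72 such calls. The log2 fold changes were −0.44 ± 0.25 for Dppa2 (adjusted p = 0.425), 0.24 ± 0.20 for Dppa3 (adjusted p = 0.59), 0.17 ± 0.13 for Dppa4 (adjusted p = 0.562) and 0.13 ± 0.10 for Dppa5a (adjusted p = 0.573). This does not show that Dppa2 was back at its level. Within the low set, the wild-type add-back at 56.8 to 57.4 CPM lay below wild type at 97.95 to 102.5 CPM, a difference of −0.80 ± 0.12 (adjusted p = 0.000113, where 22.5% of genes were called). Dppa3 in the same set was 0.60 ± 0.19 above wild type (adjusted p = 0.0234), where wild type had its lowest Dppa3 levels (3.30 to 3.97 CPM). The wild-type range of Dppa2 over all sets reaches down to 54.2 CPM only through the middle set. Smarca5 mRNA averaged 86.0 CPM in the wild-type add-back against 185 CPM in wild type. It was thus 2.15-fold lower (−1.105 ± 0.134, adjusted p = 0.000245), and its part in the Dppa levels was not tested.

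In the mutant add-back against wild type, Dppa5a was higher and Dppa3 lower, where 45.5% of all tested genes were called, with 3675 in place of 6787 genes without mutant add-back replicate 1. Dppa5a was 1.57-fold higher (0.65 ± 0.11, adjusted p = 0.000159), with 0.65 ± 0.09 in the low set (adjusted p = 2.18e-06). Dppa3 was 2.08-fold lower (−1.06 ± 0.26, adjusted p = 0.00282), with −0.70 ± 0.23 in the low set (adjusted p = 0.0139). With replicate 1 as the only mutant library it was −0.75 (adjusted p = 0.0886). Dppa2 lay below every wild-type library, with no overlap for 47.1% of genes, at −0.74 ± 0.30, at the edge of the threshold (adjusted p = 0.0502). It passed without wild-type replicate 1, 2, 4 or 5 (−0.80, −0.80, −0.79 and −0.79) and in the low set (−1.11 ± 0.14, adjusted p = 2.26e-06, where 60.3% of genes were called). Dppa4 was 0.10 ± 0.15 above wild type over all libraries (adjusted p = 0.622), and in the low set it was below wild type (−0.16 ± 0.07, adjusted p = 0.042). This comparison shares its mutant add-back and wild-type libraries with ones above. The mutant add-back, unlike wild type, was on feeders by the labels, so feeder exposure and genotype cannot be told apart. Smarca5 mRNA was 3.16-fold lower in the mutant add-back than in wild type (−1.66 ± 0.17, adjusted p = 3.92e-07). Its part in the Dppa levels was not tested.

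Of the genes that RefSeq places within 200 kb of a Dppa gene, 25 were in the table and 18 were tested. In ko 3 rose, 5 fell and 10 did not pass the test, and 4 rose, 5 fell and 9 did not pass between the wild-type add-back and ko, beside 55% and 45% of all genes called. On chromosome 16 the only tested neighbour of the pair was Morc1, a MORC family ATPase that silences transposons in the male germ line, which starts 121 kb downstream of the start of Dppa2. Morc1 had 87.7, 91.9 and 93.1 CPM in the wild-type add-back, 43.1 and 43.0 CPM in the mutant add-back, and 29.6 to 39.1 CPM in ko, against 60.0 to 76.2 CPM in wild type. It fell in ko (−1.03 ± 0.08, adjusted p = 6.23e-09) and was higher in the wild-type add-back than in ko (1.39 ± 0.10, adjusted p = 3.7e-09), whereas the mutant add-back missed the threshold (0.31 ± 0.11, adjusted p = 0.222). The ko effect was −0.91 in the low and −1.32 in the middle set. Unlike Dppa2, Morc1 went above wild type in the wild-type add-back (0.37 ± 0.09, adjusted p = 0.0445; 0.35 ± 0.07 in the low set, adjusted p = 0.000804). Dppa4, at the other end of the same stretch, changed least of these genes.

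Dppa3 lies in a cluster of genes expressed in ES cells on chromosome 6. Gdf3, a growth factor of the TGF-beta family that starts 21 kb before it, did not pass in ko over all libraries (−0.33 ± 0.15, adjusted p = 0.0798), but fell in the middle set (−1.02, adjusted p = 1.03e-05) and not in the low (−0.03, adjusted p = 0.843). Nanog, a core pluripotency factor that starts 81.1 kb after it, was 0.31 ± 0.11 higher in ko (adjusted p = 0.0201), with opposite directions in the sets (0.60 in the low and −0.22 in the middle set, both called). Mfap5, a matrix microfibril gene, fell in ko (−1.58 ± 0.18, adjusted p = 9.43e-07) and was higher in the wild-type add-back than in ko (1.02 ± 0.23, adjusted p = 0.00144), as Dppa3 was. Foxj2, a forkhead factor 193.8 kb away, did the opposite (0.84 ± 0.14, adjusted p = 7.51e-05, then −0.78 ± 0.19, adjusted p = 0.00299). Near Dppa5a, Ooep, a KH domain gene of the maternal oocyte complex that starts 9.9 kb from it, did not pass in ko (−0.18 ± 0.11, adjusted p = 0.168). Ddx43, a DEAD-box RNA helicase 28.7 kb from it, rose in ko (0.62 ± 0.15, adjusted p = 0.00215), as Dppa5a did.

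**Figure D4:**
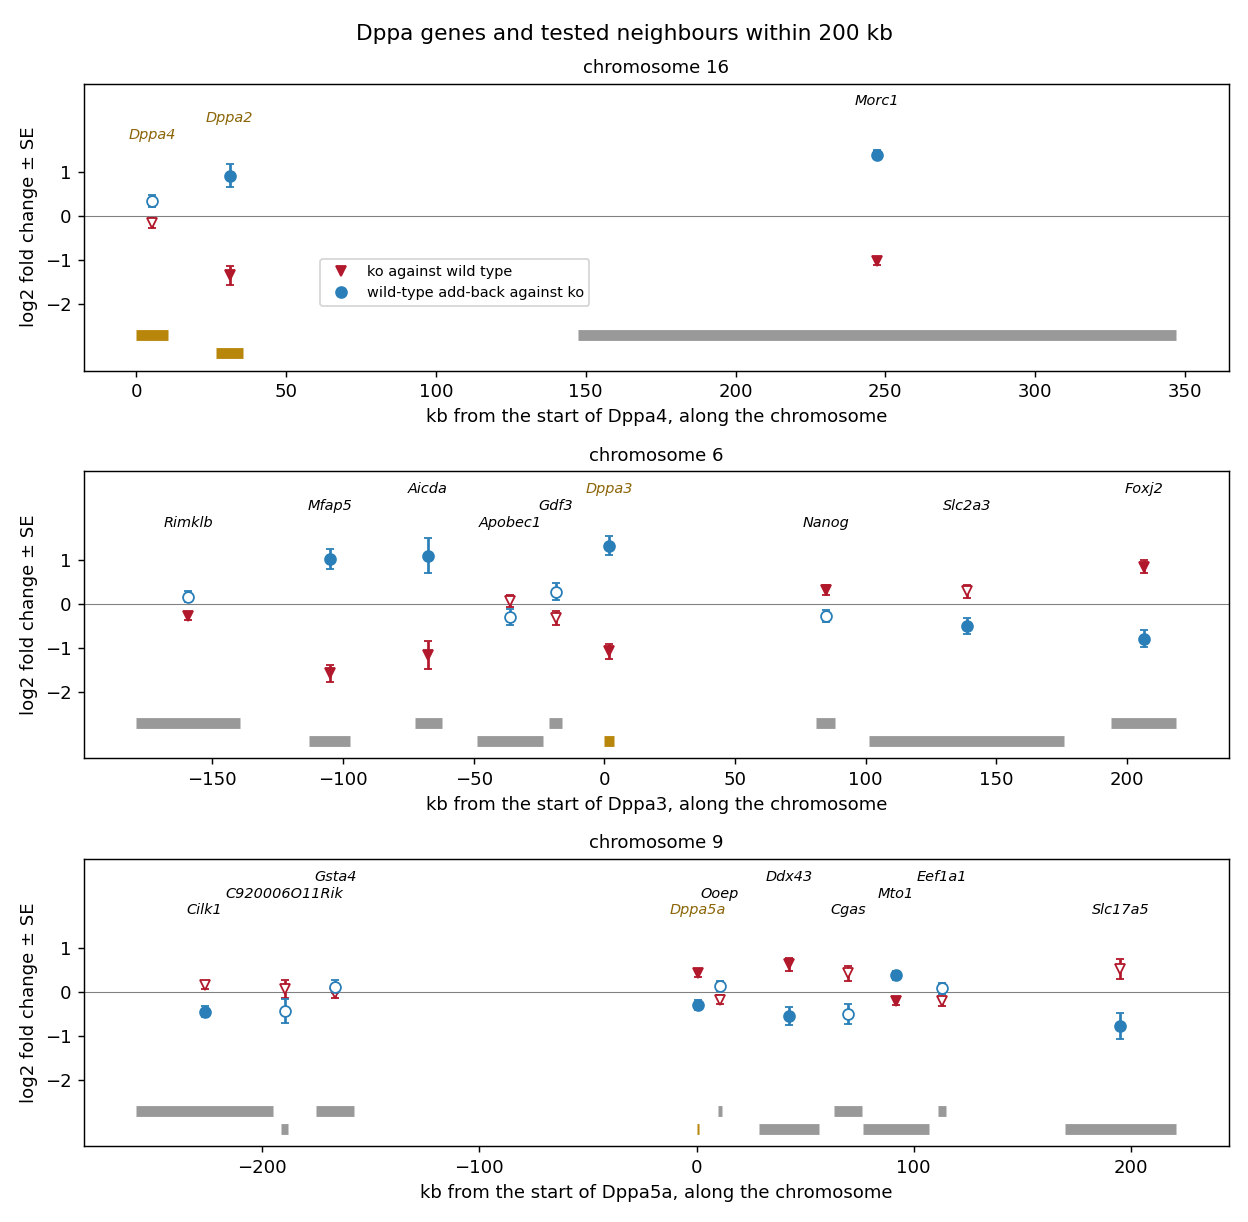
Log2 fold changes (vertical axis, with SE) of the Dppa genes (gold) and their tested neighbours against distance in kb along the chromosome from the start of Dppa4, Dppa3 or Dppa5a. Red triangles are ko against wild type and blue circles the wild-type add-back against ko, filled where the adjusted p was under 0.05, with gene spans as bars below. Morc1 fell in ko (−1.03) and rose in the add-back (1.39), and Dppa4 beside Dppa2 has no filled symbol.

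Dppa2, Dppa4 and Dppa5a belong to the ES cell associated transcripts (ECAT genes), once listed for their restriction to ES cells. Of 8 further ECAT genes, all tested, 3 fell, 2 rose and 3 did not pass in ko, where 55% of all tested genes were called. Their median log2 fold change was −0.25 against −0.01 over all genes. Tdrd12, a Tudor domain gene of the piRNA pathway, fell to 1.28 CPM in ko, against 38.8 CPM in wild type (−4.94 ± 0.26, adjusted p = 3.77e-11). Fbxo15, an F-box gene, fell by 1.14 ± 0.12 (adjusted p = 2.24e-07) and Dnmt3l, a cofactor of de novo DNA methylation, by 1.25 ± 0.19 (adjusted p = 2.01e-05). Khdc3, which like Dppa5a encodes a KH domain, rose by 0.46 ± 0.10 (adjusted p = 0.000877), as did Nanog. Gdf3, Sox15 and Eras, a Ras-like gene, did not pass (−0.33, −0.18 and −0.05). The sets differed here, with 3 rising and 3 falling in the low set and 0 rising and 6 falling in the middle set. Of all tested genes 60.1% and 61.8% were called in these sets.

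In the wild-type add-back the 3 ECAT genes that fell in ko rose over ko, Tdrd12 to 41.4 CPM (5.03 ± 0.29, adjusted p = 2.35e-10), Dnmt3l by 1.20 ± 0.23 (adjusted p = 0.000315) and Fbxo15 by 1.02 ± 0.14 (adjusted p = 1.66e-05). Between these groups 45% of all tested genes were called. None of the 8 differed from wild type in that group by edgeR's test (0 also by DESeq2 and at an unadjusted p under 0.05), though 1 was higher and 1 lower in the low set. Of all tested genes 1.6% were called against wild type, and 22.5% in the low set. In the mutant add-back none of the 8 passed edgeR's test against ko, 2 had an unadjusted p under 0.05 and DESeq2 called 1, and Tdrd12 stood at 0.857 CPM. Among all tested genes DESeq2 called 332 there, and the share with an unadjusted p under 0.05 is not given here. Dnmt3l had the largest difference, at 223 CPM in the mutant add-back against 111 CPM in ko (1.01 ± 0.25, adjusted p = 0.0989), and it passed in the low set (1.23 ± 0.13, adjusted p = 4.59e-06).

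**Figure D5:**
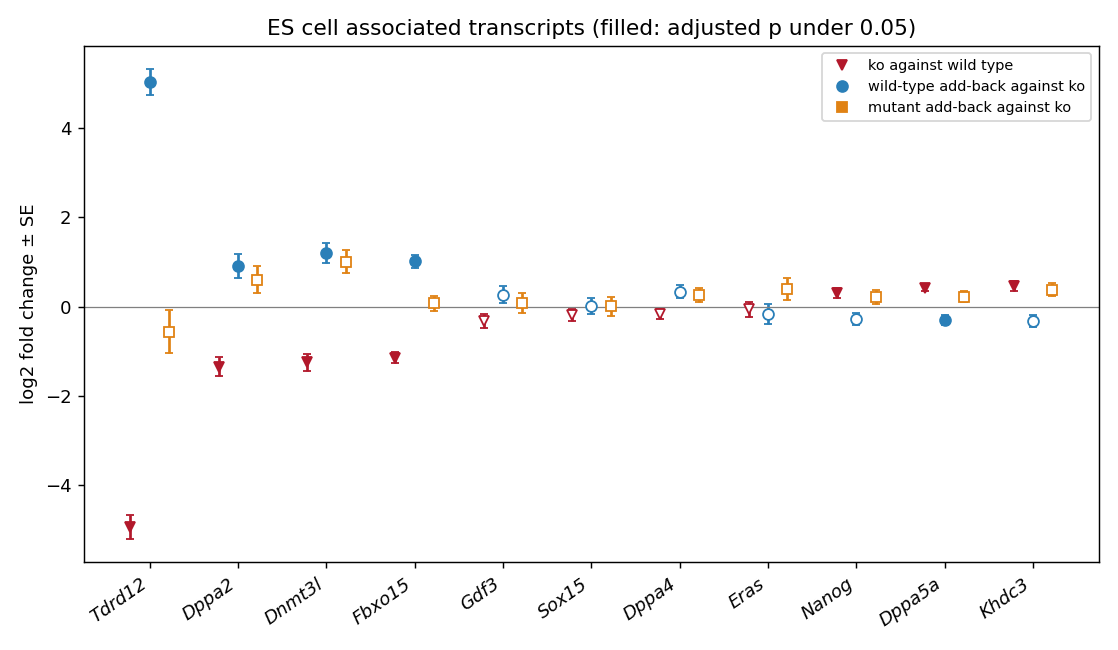
Log2 fold changes (vertical axis, with SE) of Dppa2, Dppa4, Dppa5a and 8 other ES cell associated transcripts, ordered by the ko effect. Red triangles are ko against wild type, blue circles wild-type add-back over ko and orange squares the mutant add-back against ko, filled where the adjusted p was under 0.05. Tdrd12 has the largest effects (−4.94 and 5.03), and no orange symbol is filled.

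A list of 19 genes linked to Dppa2 and Dppa4 had 17 in the table and 12 tested. In ko 10 fell, 1 rose and 1 did not pass, with a median of −1.85 against −0.01 over all genes. Of all tested genes 28.2% were called lower and 26.8% higher there. Most of these are multicopy genes of the 2-cell-like state, at low level and with reads that near-identical copies could share. Zscan4c, for example, averaged 1.36 CPM in ko against 6.62 CPM in wild type (−2.32 ± 0.37, adjusted p = 3.69e-05), and the ko effect was −2.09 in the low and −4.17 in the middle set. Syce1, a synaptonemal complex gene, fell (−2.61 ± 0.27, adjusted p = 2.26e-07), while Mael, a piRNA pathway gene, rose 1.22 ± 0.09 (adjusted p = 1.96e-09).

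These genes parted in the wild-type add-back. Syce1 rose over ko by 2.64 ± 0.31 (adjusted p = 2.03e-06), to 37.2 CPM against 36.6 CPM in wild type, but in the low set it was below wild type (−0.44 ± 0.07, adjusted p = 0.000138). Mael fell by 1.35 ± 0.12 (adjusted p = 8.48e-08). The other 10 did not pass against ko over all libraries, whereas in the low set Zscan4c (−0.92 ± 0.23, adjusted p = 0.00153), Zscan4f (−0.82 ± 0.24, adjusted p = 0.00629) and Nkx2-5 (−1.46 ± 0.49, adjusted p = 0.0154) were lower than in ko. Zscan4c had 1.02 to 1.08 CPM in the wild-type add-back and stayed below the 3.68 to 9.25 CPM of wild type (−2.64 ± 0.48, adjusted p = 0.00839). In all, 5 of the 12 were lower and none higher in the wild-type add-back than in wild type, where 1.6% of all tested genes were called. This count ran from 0 to 5 when 1 library was left out. In the low set 9 were lower, where 22.5% of all genes were called. Dppa2 itself was lower there in the low set, as given above, and its part in the levels of these genes was not tested. In the mutant add-back against ko none of the 12 passed edgeR's test over all libraries, 1 had an unadjusted p under 0.05 and DESeq2 called 1. Among all tested genes DESeq2 called 332 there, and the share with an unadjusted p under 0.05 is not given here. In the low set 1 rose and 3 fell, where 14.6% of all genes were called.

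Among 12 genes of DNA methylation, the pathway on which Dppa3 acts, 7 fell, 2 rose and 3 did not pass in ko, with a median of −0.22. Of all tested genes 55% were called there. Uhrf1, the target of Dppa3, was at 423 CPM in ko against 458 CPM in wild type (−0.12 ± 0.07, adjusted p = 0.166), and was lower in the low set (−0.20 ± 0.05, adjusted p = 0.00303). The largest change was in the de novo methyltransferase Dnmt3a (−1.40 ± 0.20, adjusted p = 1.45e-05). Tet3, a methylcytosine oxidase gene, rose (0.60 ± 0.09, adjusted p = 1.98e-05). In the wild-type add-back against ko 6 rose and 2 fell, where 45% of all genes were called. Among them were Tet1, another such oxidase gene, with 0.62 ± 0.11 (adjusted p = 0.000232), and Tet3 with −0.58 ± 0.12 (adjusted p = 0.0007).

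Of 12 primordial germ cell genes, to which Dppa3 is close in its known expression, 6 fell, 1 rose and 5 did not pass in ko. This stands beside 55% of all genes called. The germ cell regulators Prdm1 (−1.84 ± 0.26, adjusted p = 1.05e-05) and Dazl (−1.75 ± 0.23, adjusted p = 4.02e-06), and the meiotic gene Sycp3 (−2.02 ± 0.34, adjusted p = 6.67e-05), fell, and the gene that rose was Mael, which the list shares with the one above. In the wild-type add-back against ko 5 rose and 1, Mael, fell, where 45% of all genes were called. In the low set the ko split was 5 higher and 5 lower, beside 60.1% of all genes called. Of 16 core ES cell genes 5 rose and 5 fell in ko, in the low set 9 and 4, and in the middle set 4 and 9, where 55%, 60.1% and 61.8% of all genes were called. Of 5 KH domain genes only Khdc3 and Ooep were tested, with the values given above. In the mutant add-back against ko 0 genes of the methylation, germ cell, core and KH lists passed edgeR's test over all libraries. In the low set, where 14.6% of all genes were called, 1 rose and 4 fell of the methylation list, 1 rose and 2 fell of the germ cell list, 1 rose and 3 fell of the core list, and 0 of the KH list passed. Over all libraries, of these lists 4, 4, 2 and 1 genes had an unadjusted p under 0.05, and DESeq2 called 2, 1, 1 and 0. Among all tested genes DESeq2 called 332 there. The share of all genes with an unadjusted p under 0.05 is not given here, so those counts have no background beside them.

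The genes whose log2 CPM was most like that of each Dppa gene were sought among 10980 genes with at least 5 CPM in some group. Libraries of 1 group, set or depth are not independent points, so these values describe the 18 libraries. Nfyc, Zfp532, Myc, Zfp27 and Immt were nearest to Dppa2 (r of 0.965 to 0.960), and Nova1, Gnpda2, Cwf19l1, Eif2a and Tomm20 to Dppa3 (0.958 to 0.939). Dnaja1, Stoml2, Nip7, Armc6 and Rcl1 were nearest to Dppa4 (0.984 to 0.971), and Cenpa, Uqcr10, Minos1, Siva1 and Ndufc1 to Dppa5a (0.967 to 0.956). No member was among the 5 nearest genes of another. Over the 11 low-set libraries the nearest genes were others throughout, led by Ercc4 for Dppa2, Mnd1-ps for Dppa3, Cct3 for Dppa4 and Pebp1 for Dppa5a. Pigp, which shares transcript sequence with Dppa5a, ranked 3 there for Dppa5a (0.986). Between members, Dppa2 and Dppa4 had r = 0.668 over 18 and 0.911 over the 11 low-set libraries, and Dppa2 and Dppa5a −0.664 and −0.719.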

How the data were processed

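The deposited table holds raw read counts per Entrez gene, each library in its own column. Stranded TruSeq libraries were made from polyadenylated, column-purified RNA, per the labels' protocols. Per the submitters' processing notes, bcl2fastq 2.17 and STAR were used with mm10 (GRCm38). What counted the reads, with which annotation and strand, is not given in the sources used here.

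Counts were fitted with edgeR 4.0.16 (limma 3.58.1, R 4.3.3): filterByExpr with a count minimum of 10 (14901 genes left), TMM, 1 mean per group, robust two-sided quasi-likelihood tests and Benjamini-Hochberg adjustment over all tested genes, called under 0.05. The SE is the log2 fold change divided by the root of F. A second fit with 1 mean per group and set by total count (limits 20 and 28 M) gave the values within sets. CPM uses TMM-scaled totals, and FPKM divides by the authors' deposited exonic length. Likeness is Pearson's r of log2 CPM with a prior count of 2. The main fit was also run on simulated independent libraries without sets by total count. That run cannot show how the fit handles the spread between sets. The 4 members are named in every comparison; other genes come from the lists, all for up to 8 members and otherwise up to 4 with the smallest adjusted p. Uhrf1, named as the target of Dppa3, and Dppa1 and Pigp fall outside this rule and were chosen after their values were seen. Members, lists and sets were chosen with earlier results of these data known. Other settings tried were DESeq2 1.42.0 (size factors or Wald test), library size alone, no filter, only the compared groups, a replicate block, the set as a covariate, single sets, summed libraries and each library left out.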

Additional observations from a re-analysis of the deposited data

How the results depend on the processing

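For ko against wild type, the directions of Dppa2, Dppa3 and Dppa5a held under every setting tried, with Dppa2 between −1.49 and −1.10; summing the libraries of a group and set left 2408 calls among all genes and ended those of Dppa3 (−1.08) and Dppa5a (0.44). Dppa4 was called with the set as a covariate (−0.28) and in the low (−0.27) and middle set (−0.30). Replicate numbers did not pair libraries (r of −0.246 to 0.169 over 5 pairs, 3 of them over 0.1); with a replicate block Dppa4 was at 0.0078 for ko against wild type and, now called, at 0.37 between wild-type add-back and ko, Dppa3 was at −0.075 for the mutant add-back against ko, and 1002 genes were called between wild-type add-back and wild type, while no other call of a Dppa gene changed. Wild-type add-back against ko: Dppa4 was called with only these groups (0.34), with the covariate (0.19) and in the low set (0.18), and between 0.28 and 0.39 with 1 library left out; Dppa5a lost its call without the filter (−0.29) and ran from −0.36 to −0.24 with 1 library left out. Mutant add-back against ko: calls numbered 332 (DESeq2), 15 (only these groups), 480 (covariate), 2180 (low set) and 4 to 143 (1 library left out); Dppa3, never called, was at −0.0048 with library size alone, −0.073 in the low set and −0.39 to 0.33 with 1 library left out, and Dppa5a was called in the low set (0.27). Wild-type against mutant add-back: 8511 calls with only these groups, 9029 in the low set and 3014 to 4684 with 1 library left out; Dppa2 was called with only these groups (0.30), and Dppa5a ran from −0.68 to −0.31. Wild-type add-back against wild type: 478 calls by DESeq2, 1532 with the covariate, 3358 in the low set and 44 to 260 with 1 library left out; Dppa2 was called with the covariate (−0.82) and in the low set (−0.80), Dppa3 in the low set (0.60), and Dppa4 was at −0.093 and −0.087 in these. Mutant add-back against wild type: 3675 to 6912 calls with 1 library left out; Dppa2 was called with DESeq2 size factors (−0.74), the DESeq2 Wald test (−0.74), only these groups (−0.74), the covariate (−1.13) and in the low set (−1.11), and ran from −0.80 to −0.67 with 1 library left out; Dppa3 ran from −1.47 to −0.75; Dppa4 was at −0.17 with the covariate and −0.16 in the low set. Using 1 set removes libraries and the spread between sets; other causes were not tested. The list counts were recomputed under the same settings, an alternative chosen after seeing the data. Depth limits Dppa3 most, with 30 to 196 reads.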
